A study of Homo sapiens with 6 samples.

Results

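The genes described here are 56 genes of autophagy and of the lysosome, found as the rows of the deposited count table whose gene symbol equals a listed name. All 56 names matched 1 row each of the 58735 rows, and all 56 are among the 15935 genes tested. They fall into 35 autophagy genes and 21 lysosome genes, which are reported apart. RD is an established human cell line of embryonal rhabdomyosarcoma (ERMS), a tumour with features of skeletal muscle. Bulk libraries of poly(A)-enriched RNA came from RD cells transduced with lentiviral particles carrying a scrambled shRNA (3 samples) or a TAK1 shRNA (3 samples). They were made to ask how loss of the kinase TAK1 (gene MAP3K7) changes transcript levels. Whether the 3 samples of a group came from separate transductions is not stated. As the study's text states, the RNA came from 1 of its TAK1 hairpins, TAK1 shRNA # 1, so the comparison rests on 1 hairpin in 1 cell line, and the time from transduction to RNA is not given for these libraries. Total counts on genes were 29125436, 31886885 and 31334733 in scrambled shRNA replicates 1, 2 and 3, and 28839898, 34469323 and 32710522 in TAK1 shRNA replicates 1, 2 and 3.

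Autophagy carries cytoplasm to the lysosome inside a double-membraned vesicle, the autophagosome. The ULK kinase complex starts the process, a phosphatidylinositol 3-kinase complex marks the membrane, lipid transfer proteins feed its growth, and ubiquitin-like conjugation attaches ATG8 proteins (the LC3 and GABARAP families) to the membrane, where they bind cargo receptors. The lysosome then breaks the cargo down with acid hydrolases, and the transcription factors TFEB and TFE3 bind E-box elements in the promoters of many of these genes. In skeletal muscle this pathway clears damaged organelles and glycogen, and inherited loss of the glycogen-degrading enzyme GAA causes Pompe disease.

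Because TFEB and TFE3 are among the genes listed, promoters were searched for the E-box CACGTG and for TCACGTGA, the inner letters of the CLEAR element, which contains CACGTG. Both words read the same on both strands. The windows, from RefSeq on GRCh38.p14, run from 250 bases before to 50 bases after the annotated start, and 47 of the 56 genes had an entry. The genes ATG4D, CTSB, CTSK, HEXA, LAMP2, MAP1LC3A, PSAP, RB1CC1 and UVRAG had none. CACGTG lay in 7 of 16 promoters of lysosome genes (43.8%) and in 2 of 31 promoters of autophagy genes (6.45%). The same word lay in 7.43% of the 27305 promoters of the table and in 10.2% of the 10827 promoters whose genes were tested. TCACGTGA lay in 4 of 16 promoters of lysosome genes (25.0%) and 1 of 31 promoters of autophagy genes (3.23%), beside 1.04% of all promoters and 1.87% of promoters of genes tested. A match describes the letters only. The 200 bases before the start are shown for the genes with the largest rise (ULK1, chr12:131894422-131894621, plus strand) and the largest fall (ATG12, chr5:115841566-115841765, minus strand) among the 56, for a pair of lysosome genes that rose (GAA, chr17:80101381-80101580, plus strand, and CTSF, chr11:66568607-66568806, minus strand) and for a pair that hold matches and did not pass the test (MCOLN1, chr19:7522424-7522623, plus strand, and LAMP1, chr13:113297039-113297238, plus strand), each 5′ to 3′ on the gene's strand with matches in capitals. The starts are those of RefSeq, and GENCODE 44, which gives the gene positions below, starts ATG12, CTSF and GAA farther upstream.
ULK1: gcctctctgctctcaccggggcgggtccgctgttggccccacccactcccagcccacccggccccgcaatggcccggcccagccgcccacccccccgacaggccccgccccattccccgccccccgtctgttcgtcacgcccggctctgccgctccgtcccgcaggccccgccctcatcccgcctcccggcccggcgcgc
ATG12: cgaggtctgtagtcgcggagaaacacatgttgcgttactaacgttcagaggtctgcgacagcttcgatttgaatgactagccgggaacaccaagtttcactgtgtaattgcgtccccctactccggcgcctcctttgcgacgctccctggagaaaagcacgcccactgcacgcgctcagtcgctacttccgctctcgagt
GAA: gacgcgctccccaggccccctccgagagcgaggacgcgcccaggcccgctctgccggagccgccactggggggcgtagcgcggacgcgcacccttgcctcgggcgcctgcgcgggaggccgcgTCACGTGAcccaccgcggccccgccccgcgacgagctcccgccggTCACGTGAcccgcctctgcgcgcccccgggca
CTSF: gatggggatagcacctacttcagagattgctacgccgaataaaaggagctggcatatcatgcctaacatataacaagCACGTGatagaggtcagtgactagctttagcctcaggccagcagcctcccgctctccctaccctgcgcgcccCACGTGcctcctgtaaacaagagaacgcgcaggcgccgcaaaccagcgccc
MCOLN1: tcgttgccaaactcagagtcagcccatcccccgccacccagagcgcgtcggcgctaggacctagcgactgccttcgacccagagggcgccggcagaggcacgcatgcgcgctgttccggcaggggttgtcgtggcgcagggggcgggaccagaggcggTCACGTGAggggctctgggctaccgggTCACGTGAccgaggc
LAMP1: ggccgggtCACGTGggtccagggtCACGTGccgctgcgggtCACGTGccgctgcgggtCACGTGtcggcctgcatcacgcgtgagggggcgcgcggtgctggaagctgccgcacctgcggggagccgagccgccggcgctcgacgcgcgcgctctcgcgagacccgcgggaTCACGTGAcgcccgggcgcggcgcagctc
The stretches of ULK1 and ATG12 held 0 matches, that of GAA held 2 copies of TCACGTGA, that of CTSF held 2 copies of CACGTG, that of MCOLN1 held 2 copies of TCACGTGA, and that of LAMP1 held 5 copies of CACGTG, 1 of them within TCACGTGA.

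The knockdown was checked on MAP3K7, which encodes TAK1. Its level was 77.9, 76.5 and 77.6 CPM with scrambled shRNA and 30.5, 33.6 and 29.9 CPM with TAK1 shRNA, where CPM is the count over the library size in units of 1e6, with library sizes scaled by the trimmed mean of M-values and samples are given in the order of replicates 1, 2 and 3. All TAK1 shRNA samples lay far below all scrambled shRNA samples, and part of the transcript remained. The log2 fold change of TAK1 shRNA over scrambled shRNA was -1.30 ± 0.062 (SE, n = 3 per group). Its adjusted p was 4.45e-14 from the edgeR quasi-likelihood F test, adjusted by Benjamini-Hochberg across the 15935 genes tested. Every adjusted p given is of this kind unless another tool or a refit (other settings, or 1 sample left out) is named. That of a refit was adjusted across the genes tested in that refit. Ranges of adjusted p over the refits include DESeq2 and limma voom. A two-sided exact permutation test over the 6 samples gave p = 0.1, the smallest p that 3 against 3 samples allow.

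The labelled cell type was compared with markers. Of 11 myogenic markers 9 were tested, of which 3 rose (MYMK, MYOD1 and MYOG) and 1 fell (CHRNA1), with summed levels of 2715, 2714 and 2712 CPM with scrambled shRNA and 2759, 2620.3 and 2559 CPM with TAK1 shRNA. The acetylcholine receptor subunit CHRNA1 was the most abundant of them, MYOD1 was at 271, 255 and 262 CPM with scrambled shRNA and 355, 340.5 and 322 CPM with TAK1 shRNA, and MYF5 had 0 counts in every sample. The 5 macrophage markers, a cell type rich in lysosomes, summed to between 0.227 and 0.762 CPM per sample, most of it CSF1R, with CD163 at 0 counts in every sample. The 3 endothelial markers summed to at most 0.162 CPM, led by PECAM1, with CDH5 at 0. Of 5 epithelial markers CDH1 and KRT19 were at 0, and the sum, most of it KRT18, was 60.8, 56.4 and 62.8 CPM with scrambled shRNA and 27.7, 29.4 and 31.1 CPM with TAK1 shRNA. The part of this shift in the values below was not tested.

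Calls required an adjusted p below 0.05 together with a log2 fold change 0.25 or more away from 0. All 35 autophagy genes and all 21 lysosome genes passed the filter on low counts. Among the autophagy genes 6 rose (17.1%), beside 11.8% of all genes tested (1879 of 15935). In the other direction 4 autophagy genes fell (11.4%), beside 11.3% of all genes tested (1805 of 15935). Among the lysosome genes 3 rose (14.3%) and 2 fell (9.52%). These shares are near those of all genes, so the counts alone are not a result about either group. Of the 41 genes not called, 12 had an adjusted p under 0.05 with a log2 fold change short of 0.25, 8 of them autophagy genes and 4 lysosome genes. As the plot of log2 fold changes by role shows, 3 of the 12 roles held calls in both directions (ATG4 proteases, ATG8 proteins and peptidases), 6 held calls in 1 direction and 3 held none. In bulk RNA, a change in the number of cells that hold a transcript and a change in transcript per cell cannot be told apart. Without scrambled shRNA replicate 2 the count of autophagy genes that fell went from 4 to 2. The count of lysosome genes that fell went from 2 to 1 without scrambled shRNA replicate 2, without scrambled shRNA replicate 3 or without TAK1 shRNA replicate 1. The count of lysosome genes that rose went from 3 to 2 without TAK1 shRNA replicate 1 or replicate 3 and to 4 without scrambled shRNA replicate 3 or TAK1 shRNA replicate 2, and that of autophagy genes that rose was 6 or 7 throughout.

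The median log2 fold change was 0.0089 over the autophagy genes and -0.0067 over the lysosome genes, beside 0.018 over all genes tested. All 3 are close to 0, and their order depends on single samples. Leaving out 1 sample moved the autophagy members median log2 fold change to between 0.011 (without scrambled shRNA replicate 2) and 0.040 (without scrambled shRNA replicate 3). The same step moved the lysosome members median log2 fold change to between -0.052 (without TAK1 shRNA replicate 1) and 0.0042 (without TAK1 shRNA replicate 2), and its sign turned as well with upper-quartile scaling (0.011) and with library size alone (0.041).

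**Figure D1:**
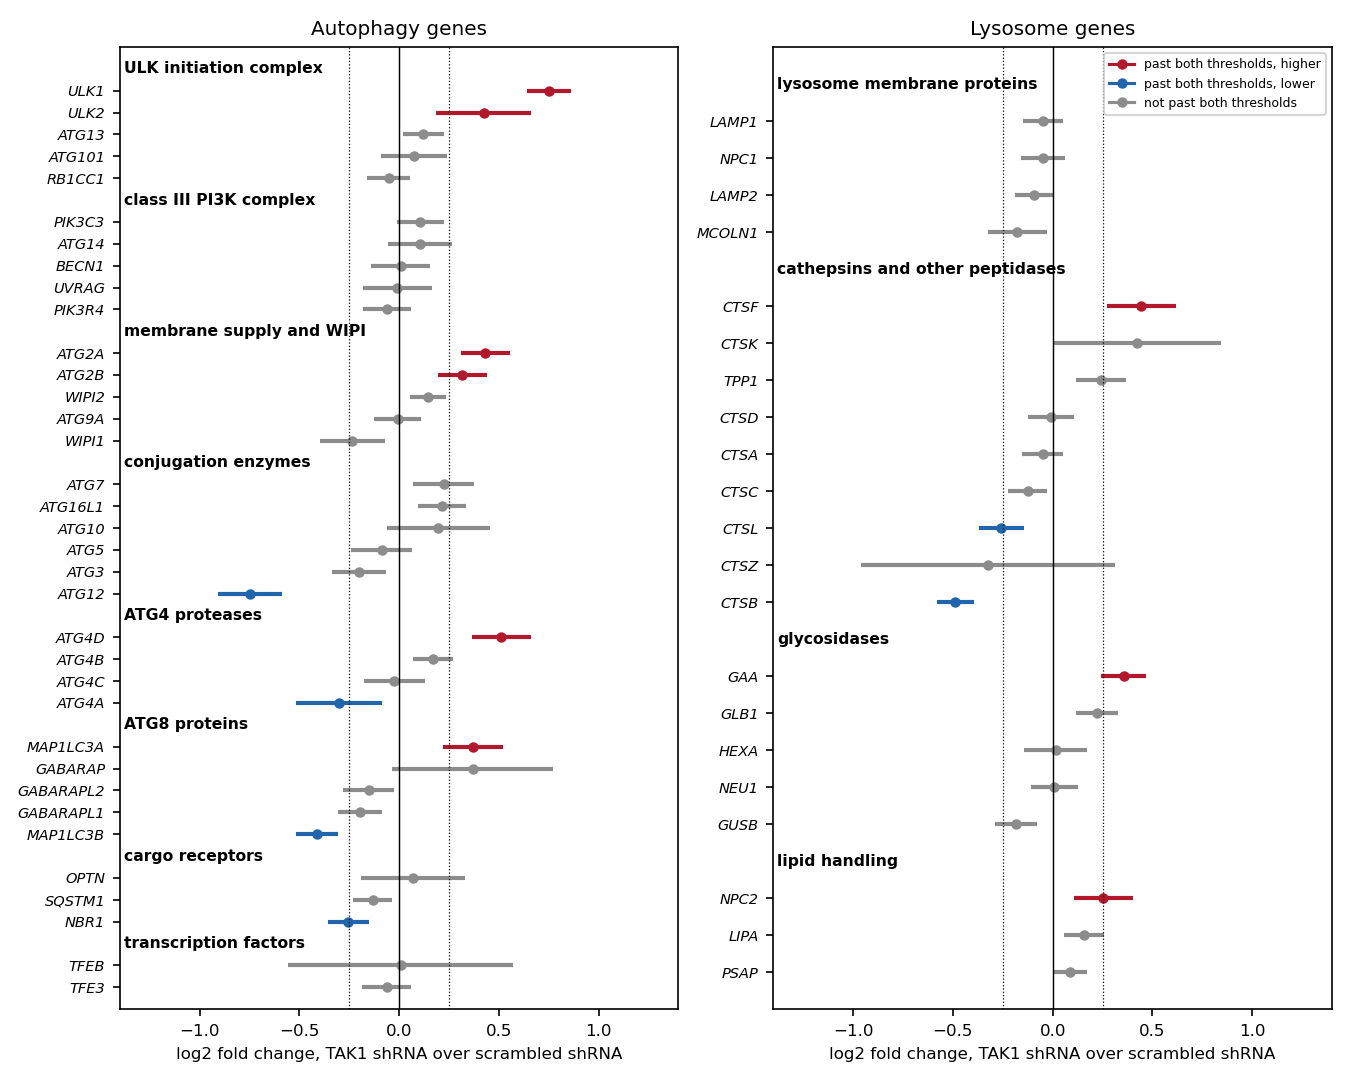
Log2 fold change of TAK1 shRNA over scrambled shRNA (horizontal axis) for the 35 autophagy genes (left) and 21 lysosome genes (right), grouped by role. Points are estimates from 3 samples per group, bars 95% intervals by a normal approximation (± 1.96 SE), and dotted lines the fold threshold of 0.25. ULK1 at 0.75 and ATG12 at -0.75 lie farthest from 0.

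Initiation holds the gene with the largest rise, ULK1. ULK1 (chr12:131894622-131923150, plus strand) encodes the serine/threonine kinase that starts autophagosome formation. Its level was 66.0, 66.9 and 60.9 CPM with scrambled shRNA and 114, 109 and 103 CPM with TAK1 shRNA. Each TAK1 shRNA sample was well above each scrambled shRNA sample, with a gap wider than the spread inside either group. The ULK1 log2 fold change was 0.75 ± 0.056 (SE, n = 3 per group), a rise of 68.3%, with an adjusted p of 1.29e-10, and it ran from 0.71 to 0.80 over the 14 refits with another normalization, filter or tool, a replicate term or 1 sample left out. ULK2 (chr17:19770829-19867936, minus strand) encodes a related kinase of the same complex and was read at a lower level, 7.21, 5.59 and 6.55 CPM with scrambled shRNA and 8.82, 8.61 and 8.48 CPM with TAK1 shRNA. Its TAK1 shRNA samples were close together and all above the scrambled shRNA samples, of which replicate 2 was the lowest. The ULK2 log2 fold change was 0.42 ± 0.12 (SE, n = 3 per group) with an adjusted p of 0.0091. Without scrambled shRNA replicate 2 it was 0.33 with an adjusted p of 0.0809, the highest of the range of 0.00449 to 0.0809 over the 14 refits, so that the ULK2 call rests on that sample. The other 3 subunits were not called. The scaffold subunit ATG13 had the highest log2 fold change of these, 0.12 ± 0.053 (SE), and RB1CC1 (FIP200), which bridges the complex to the membrane, had the lowest of the role, -0.052 ± 0.055 (SE). ATG101, which stabilises ATG13, lay between them at 0.073 ± 0.085 (SE) and ran from 0.021 to 0.13 over the 14 refits. The RB1CC1 log2 fold change turned above 0 (0.0024) without TAK1 shRNA replicate 1.

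The class III phosphatidylinositol 3-kinase complex makes the lipid signal on the forming membrane. edgeR called 0 of its 5 genes, 0 had an unadjusted p under 0.05, and DESeq2 and limma voom each called 0. The log2 fold changes ran from -0.06 ± 0.062 (SE) for PIK3R4, the regulatory subunit, to 0.11 ± 0.06 (SE) for PIK3C3, the lipid kinase. The subunits BECN1, ATG14 and UVRAG lay between these. The widest 95% interval in this role, that of UVRAG, ran from -0.18 to 0.17, so changes past 0.25 in size lay outside the interval of most of these genes, with ATG14 (-0.055 to 0.27) the exception.

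Lipid supply to the growing membrane depends on ATG2A and ATG2B, which move lipids between membranes. ATG2A (chr11:64894546-64917209, minus strand) was at 60.9, 56.9 and 53.9 CPM with scrambled shRNA and 83.7, 75.4 and 72.6 CPM with TAK1 shRNA. All TAK1 shRNA samples were higher than all scrambled shRNA samples, and replicate 1 was the highest of each group. The ATG2A log2 fold change was 0.43 ± 0.062 (SE, n = 3 per group), with an adjusted p of 5.68e-06. ATG2B (chr14:96279195-96363341, minus strand) was at 34.9, 35.5 and 36.4 CPM with scrambled shRNA and 43.1, 44.6 and 45.3 CPM with TAK1 shRNA. The groups did not overlap, and the spread inside each was narrow. The ATG2B log2 fold change was 0.32 ± 0.063 (SE, n = 3 per group), with an adjusted p of 0.000297. Both paralogs were called under each of the 14 refits. The other genes of this role were not called. WIPI2, which recruits the conjugation machinery to the lipid signal, had a log2 fold change of 0.15 ± 0.047 (SE) and the scramblase ATG9A -0.0071 ± 0.06 (SE). WIPI1, a relative of WIPI2, had the lowest value of the role, -0.23 ± 0.082 (SE) with an adjusted p of 0.0301. The WIPI1 log2 fold change passed both thresholds without scrambled shRNA replicate 1 (-0.2539), without TAK1 shRNA replicate 1 (-0.2506) and without TAK1 shRNA replicate 3 (-0.28).

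Conjugation joins ATG12 to ATG5 and ATG8 proteins to lipid. ATG12 (chr5:115828200-115841837, minus strand), the ubiquitin-like protein of the first reaction, had the lowest log2 fold change of the 56 genes. Its level was 41.3, 41.5 and 43.2 CPM with scrambled shRNA and 22.3, 29.2 and 23.4 CPM with TAK1 shRNA. The scrambled shRNA samples were nearly equal, and the TAK1 shRNA samples were all far lower, with replicate 2 the highest of them. The ATG12 log2 fold change was -0.75 ± 0.082 (SE, n = 3 per group), a fall of 40.4%, with an adjusted p of 8.81e-08, and it ran from -0.88 to -0.67 over the 14 refits. Its exons overlap those of AP3S1 on the opposite strand, so a count without strand could hold reads of both. The enzymes that act around ATG12 were not called. ATG7, the E1-like enzyme that activates both ubiquitin-like proteins, had the highest value of the role, 0.22 ± 0.077 (SE) with an adjusted p of 0.028. ATG16L1, which places the conjugate on the membrane, had a log2 fold change of 0.22 ± 0.062 (SE) with an adjusted p of 0.00878. ATG3, the E2-like enzyme for ATG8 proteins, had one of -0.20 ± 0.07 (SE) with an adjusted p of 0.0279. These 3 genes were past the threshold on p and short of the threshold on fold. The ATG7 log2 fold change passed both without scrambled shRNA replicate 2 (0.28) and without TAK1 shRNA replicate 1 (0.2516), as it did with library size alone (0.27), and the ATG16L1 log2 fold change without scrambled shRNA replicate 3 (0.26) and with library size alone (0.26). ATG5, the partner of ATG12, had a log2 fold change of -0.087 ± 0.078 (SE), and ATG10, the E2-like enzyme that joins them, 0.20 ± 0.13 (SE).

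ATG4 proteases trim ATG8 proteins before conjugation and release them from membranes afterwards, and of the 4 paralogs 1 rose and 1 fell. ATG4D (chr19:10543895-10553418, plus strand) was at 21.1, 22.5 and 23.3 CPM with scrambled shRNA and 34.2, 31.0 and 30.3 CPM with TAK1 shRNA. Every TAK1 shRNA sample exceeded every scrambled shRNA sample by several CPM. The ATG4D log2 fold change was 0.51 ± 0.075 (SE, n = 3 per group), with an adjusted p of 7.40e-06, and it was called under each of the 14 refits. Part of its exons lie opposite those of KRI1, so a count without strand could hold reads of both. ATG4A (chrX:108091668-108154671, plus strand) was at 9.39, 10.2 and 8.95 CPM with scrambled shRNA and 7.69, 7.87 and 7.63 CPM with TAK1 shRNA. Its TAK1 shRNA samples were close together and all below the scrambled shRNA samples. The ATG4A log2 fold change was -0.30 ± 0.11 (SE, n = 3 per group), with an adjusted p of 0.0385. The ATG4A call was lost without any 1 of 5 of the samples, with adjusted p-values of 0.069 without scrambled shRNA replicate 1, 0.178 without scrambled shRNA replicate 2, 0.0666 without TAK1 shRNA replicate 1, 0.0551 without TAK1 shRNA replicate 2 and 0.0632 without TAK1 shRNA replicate 3. It was lost too with upper-quartile scaling (0.0513), with library size alone (0.0835) and without a filter (0.0624), and over all 14 refits the adjusted p ran from 0.0304 to 0.178. ATG4B, the paralog with the highest level per length of the 4, had a log2 fold change of 0.17 ± 0.05 (SE) with an adjusted p of 0.0103, short of the fold threshold. ATG4C had one of -0.026 ± 0.078 (SE).

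Among the ATG8 proteins, the pair of LC3 genes listed moved in opposite directions. MAP1LC3A (chr20:34546854-34560345, plus strand) was at 40.4, 33.9 and 37.6 CPM with scrambled shRNA and 54.3, 47.3 and 43.3 CPM with TAK1 shRNA. The groups did not overlap, though scrambled shRNA replicate 1 and TAK1 shRNA replicate 3 came close. The MAP1LC3A log2 fold change was 0.37 ± 0.078 (SE, n = 3 per group), with an adjusted p of 0.000582. MAP1LC3B (chr16:87383953-87404779, plus strand), the LC3 form most used as a marker of autophagosomes, was at 80.6, 77.5 and 76.7 CPM with scrambled shRNA and 57.2, 58.7 and 60.6 CPM with TAK1 shRNA. Here the TAK1 shRNA samples all lay well below the scrambled shRNA samples, with little spread in either group. The MAP1LC3B log2 fold change was -0.41 ± 0.054 (SE, n = 3 per group), a fall of 24.8%, with an adjusted p of 1.71e-06. Both LC3 genes were called under each of the 14 refits, with ranges of 0.28 to 0.43 and -0.44 to -0.36. MAP1LC3B has a close paralog, MAP1LC3B2, and its exons meet those of FBXO31 on the opposite strand, so some reads may be shared. GABARAPL1 had a log2 fold change of -0.20 ± 0.055 (SE) with an adjusted p of 0.00756, short of the fold threshold, and GABARAPL2 one of -0.15 ± 0.065 (SE) with an adjusted p of 0.0745. GABARAP was read at 1.86, 2.48 and 2.04 CPM with scrambled shRNA and 2.39, 2.92 and 2.94 CPM with TAK1 shRNA, the lowest level of the family. Its groups overlapped, and its log2 fold change of 0.37 ± 0.21 (SE) had an adjusted p of 0.18. In GENCODE 44, 35.4% of the exon bases of GABARAP also belong to another gene on the same strand, so its low counts may not hold all of its reads.

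Cargo receptors bind ubiquitinated cargo and ATG8 proteins at once. NBR1 (chr17:43170481-43211689, plus strand) was at 101, 113 and 111 CPM with scrambled shRNA and 88.8, 91.5 and 91.5 CPM with TAK1 shRNA. The TAK1 shRNA samples were nearly equal and all below the scrambled shRNA samples, of which replicate 1 was the lowest. The NBR1 log2 fold change was -0.25 ± 0.053 (SE, n = 3 per group), with an adjusted p of 0.000492. It was short of the fold threshold without scrambled shRNA replicate 2 (-0.22), without scrambled shRNA replicate 3 (-0.24) and without TAK1 shRNA replicate 1 (-0.24). The same held with upper-quartile scaling (-0.24), with library size alone (-0.21) and with at least 10 counts in every sample (-0.2498). Exons of NBR1 too overlap a gene on the opposite strand (ENSG00000267002). SQSTM1, which encodes the receptor p62, was at 156, 149 and 151 CPM with scrambled shRNA and 146, 139 and 131 CPM with TAK1 shRNA. Every TAK1 shRNA sample was below every scrambled shRNA sample, but by a small margin. The SQSTM1 log2 fold change was -0.13 ± 0.05 (SE, n = 3 per group), with an adjusted p of 0.0434 and a 95% interval of -0.23 to -0.034, and it was not called because it is short of the fold threshold. OPTN, a receptor for mitochondria and bacteria, had the highest log2 fold change of the role, 0.071 ± 0.13 (SE). Over the 14 refits it ran from -0.017 to 0.17, so its sign did not hold.

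TFEB and TFE3 switch on lysosome and autophagy genes when they enter the nucleus, and their transcript level does not measure that step. TFEB was at 1.20, 1.24 and 1.30 CPM with scrambled shRNA and 1.20, 1.05 and 1.51 CPM with TAK1 shRNA. The TAK1 shRNA samples lay on both sides of the scrambled shRNA samples. The TFEB log2 fold change was 0.0089 ± 0.29 (SE, n = 3 per group), with an adjusted p of 0.987 and a 95% interval of -0.55 to 0.57, so a change inside this interval cannot be told apart from none. TFE3 was at 58.4, 61.3 and 56.2 CPM with scrambled shRNA and 61.3, 53.2 and 54.1 CPM with TAK1 shRNA. Its groups overlapped. The TFE3 log2 fold change was -0.062 ± 0.063 (SE, n = 3 per group), with an adjusted p of 0.492 and a 95% interval of -0.19 to 0.061. edgeR called 0 of these 2 genes, 0 had an unadjusted p under 0.05, and DESeq2 and limma voom each called 0.

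**Figure D2:**
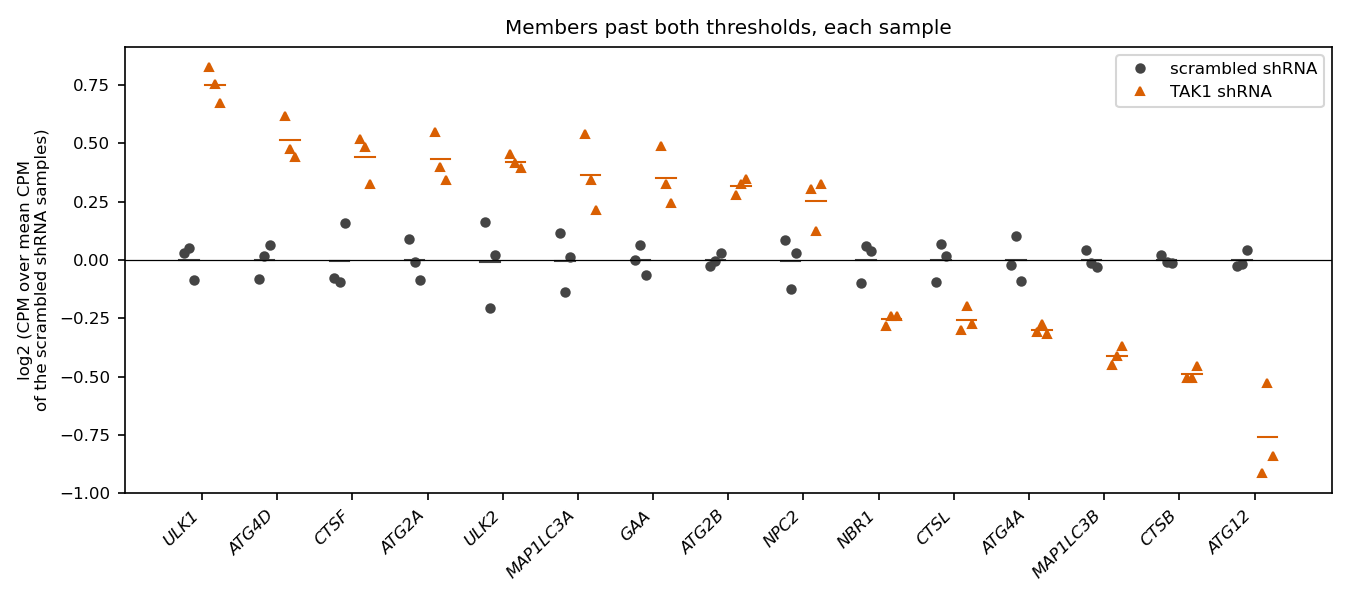
Log2 ratio of CPM in each sample to the mean CPM of the scrambled shRNA samples (vertical axis) for the 15 genes called, from the highest to the lowest log2 fold change. Circles are the 3 scrambled shRNA samples, triangles the 3 TAK1 shRNA samples and lines the group means; the groups do not overlap in these 15 genes, which were drawn because they were called, and of the 15935 genes tested 3449 had groups apart with TAK1 shRNA higher and 3542 with it lower.

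Lysosome membrane proteins were not called. LAMP1, an abundant glycoprotein of the lysosomal membrane, was at 143, 136 and 131 CPM with scrambled shRNA and 138, 128 and 131 CPM with TAK1 shRNA. The groups overlapped, with the highest sample in the scrambled shRNA group. The LAMP1 log2 fold change was -0.048 ± 0.05 (SE, n = 3 per group), with an adjusted p of 0.514 and a 95% interval of -0.15 to 0.051. The lowest value of the role was that of MCOLN1, the calcium channel of the lysosome, -0.18 ± 0.075 (SE) with an adjusted p of 0.0731. NPC1, the cholesterol exporter, was at -0.048 ± 0.056 (SE) and LAMP2, a partner of LAMP1, at -0.091 ± 0.049 (SE). All 4 genes had a log2 fold change under 0, but the LAMP1 log2 fold change and the NPC1 log2 fold change turned above 0 (0.00076 and 0.00074) when samples were scaled by library size alone. edgeR called 0 of the 4, 1 had an unadjusted p under 0.05, and DESeq2 and limma voom each called 0.

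The cathepsins are the main peptidases of the lysosome, and here too calls went in both directions. CTSB, a cysteine peptidase, was at 166, 163 and 162 CPM with scrambled shRNA and 115, 115 and 119 CPM with TAK1 shRNA. The samples of each group were nearly equal, and the groups stood far apart. The CTSB log2 fold change was -0.49 ± 0.047 (SE, n = 3 per group), a fall of 28.7%, with an adjusted p of 1.02e-08 and a range of -0.52 to -0.44 over the 14 refits. CTSL (chr9:87724051-87731469, plus strand), another cysteine peptidase, was at 70.0, 78.4 and 75.6 CPM with scrambled shRNA and 60.6, 65.0 and 61.7 CPM with TAK1 shRNA. All TAK1 shRNA samples were below all scrambled shRNA samples, of which replicate 1 was the lowest. The CTSL log2 fold change was -0.26 ± 0.058 (SE, n = 3 per group), with an adjusted p of 0.00104. It was short of the fold threshold without scrambled shRNA replicate 2 (-0.22), without scrambled shRNA replicate 3 (-0.2495) and without TAK1 shRNA replicate 1 (-0.24), as it was with upper-quartile scaling (-0.24) and with library size alone (-0.21). CTSF (chr11:66563464-66568879, minus strand), a cysteine peptidase with a long propeptide, was at 15.5, 15.4 and 18.3 CPM with scrambled shRNA and 23.5, 23.0 and 20.5 CPM with TAK1 shRNA. The TAK1 shRNA samples were all higher, with scrambled shRNA replicate 3 and TAK1 shRNA replicate 3 the nearest to each other. The CTSF log2 fold change was 0.44 ± 0.088 (SE, n = 3 per group), with an adjusted p of 0.00032, and it was called under each of the 14 refits. CTSD, the aspartic peptidase, was at 100.2, 99.6 and 95.5 CPM with scrambled shRNA and 109, 89.9 and 95.6 CPM with TAK1 shRNA. TAK1 shRNA replicate 1 was the highest of all samples and replicate 2 the lowest, so the groups overlapped. The CTSD log2 fold change was -0.0067 ± 0.059 (SE, n = 3 per group), with an adjusted p of 0.947 and a 95% interval of -0.12 to 0.11. In GENCODE 44, 27.3% of the exon bases of CTSD lie in other genes on the same strand.

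The other 5 peptidases were not called. TPP1, which removes tripeptides, had a log2 fold change of 0.24 ± 0.064 (SE) with an adjusted p of 0.00437, just short of the fold threshold, and the TPP1 log2 fold change passed it without scrambled shRNA replicate 2 (0.2518), without scrambled shRNA replicate 3 (0.26) and without TAK1 shRNA replicate 2 (0.27), as it did with upper-quartile scaling (0.26) and with library size alone (0.29). CTSC, a dipeptidyl peptidase, was at -0.13 ± 0.05 (SE) and the carboxypeptidase CTSA at -0.049 ± 0.053 (SE). CTSK and CTSZ were read at about 2.14 and 1.15 CPM on average with scrambled shRNA, and their log2 fold changes of 0.42 ± 0.22 (SE) and -0.32 ± 0.32 (SE) had adjusted p-values of 0.139 and 0.486.

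Among the glycosidases, which remove sugars, GAA was the gene called. GAA (chr17:80101533-80119881, plus strand) encodes the enzyme that degrades glycogen in lysosomes, and it was at 104, 108 and 99.0 CPM with scrambled shRNA and 146, 129.9 and 123 CPM with TAK1 shRNA. All TAK1 shRNA samples were above all scrambled shRNA samples, with TAK1 shRNA replicate 1 the highest. The GAA log2 fold change was 0.36 ± 0.058 (SE, n = 3 per group), a rise of 27.9%, with an adjusted p of 2.80e-05 and a range of 0.28 to 0.40 over the 14 refits. GUSB, a beta-glucuronidase, had the lowest value of the role, -0.18 ± 0.055 (SE) with an adjusted p of 0.0111. GLB1, a beta-galactosidase, had one of 0.22 ± 0.054 (SE) with an adjusted p of 0.00231. Both were short of the fold threshold, and the GLB1 log2 fold change passed it (0.27) when samples were scaled by library size alone. HEXA and NEU1 were within 0.02 of 0.

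Lipid handling was the role in which all 3 log2 fold changes were above 0. NPC2 (chr14:74476192-74494177, minus strand), which hands cholesterol to NPC1, was at 30.5, 26.3 and 29.3 CPM with scrambled shRNA and 35.4, 31.3 and 36.0 CPM with TAK1 shRNA. The groups did not overlap, though TAK1 shRNA replicate 2 was close to scrambled shRNA replicate 1. The NPC2 log2 fold change was 0.25 ± 0.076 (SE, n = 3 per group), with an adjusted p of 0.0111, just inside the fold threshold. It was short of it without scrambled shRNA replicate 2 (0.19), without TAK1 shRNA replicate 1 (0.23), without TAK1 shRNA replicate 3 (0.21), with RLE size factors (0.2485), without a filter (0.2469) and with DESeq2 (0.2486). Exons of NPC2 overlap ISCA2 on the opposite strand and MIR4709 on its own (2.79% of its exon bases). LIPA, the acid lipase, had a log2 fold change of 0.16 ± 0.051 (SE) with an adjusted p of 0.019. PSAP, the precursor of the saposins, had the lowest of the role, 0.088 ± 0.042 (SE).

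Of the 15 genes called, 10 were called under each of the 14 refits (ULK1, ATG2A, ATG2B, ATG12, ATG4D, MAP1LC3A, MAP1LC3B, CTSB, CTSF and GAA), and the calls of ULK2, ATG4A, NBR1, CTSL and NPC2 were each lost in at least 1 refit. The sign of all 15 held in every refit. CACGTG lay in 9 of the 47 promoters of the 56 genes (19.1%), beside 10.2% of promoters of all genes tested. It lay in 2 of 7 promoters of genes that rose (GAA and CTSF), 0 of 5 of genes that fell and 7 of 35 of genes not called (20.0%), numbers too small to set the called genes apart from the others. Among the other genes taken up below, it lay in 6 of 32 promoters of autophagy genes and 18 of 75 of lysosome genes, most of them not called, with 5 that fell (SUMF1, NRBF2, VPS11, CD63 and TBK1) and 1 that rose (FNIP1).

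**Figure D3:**
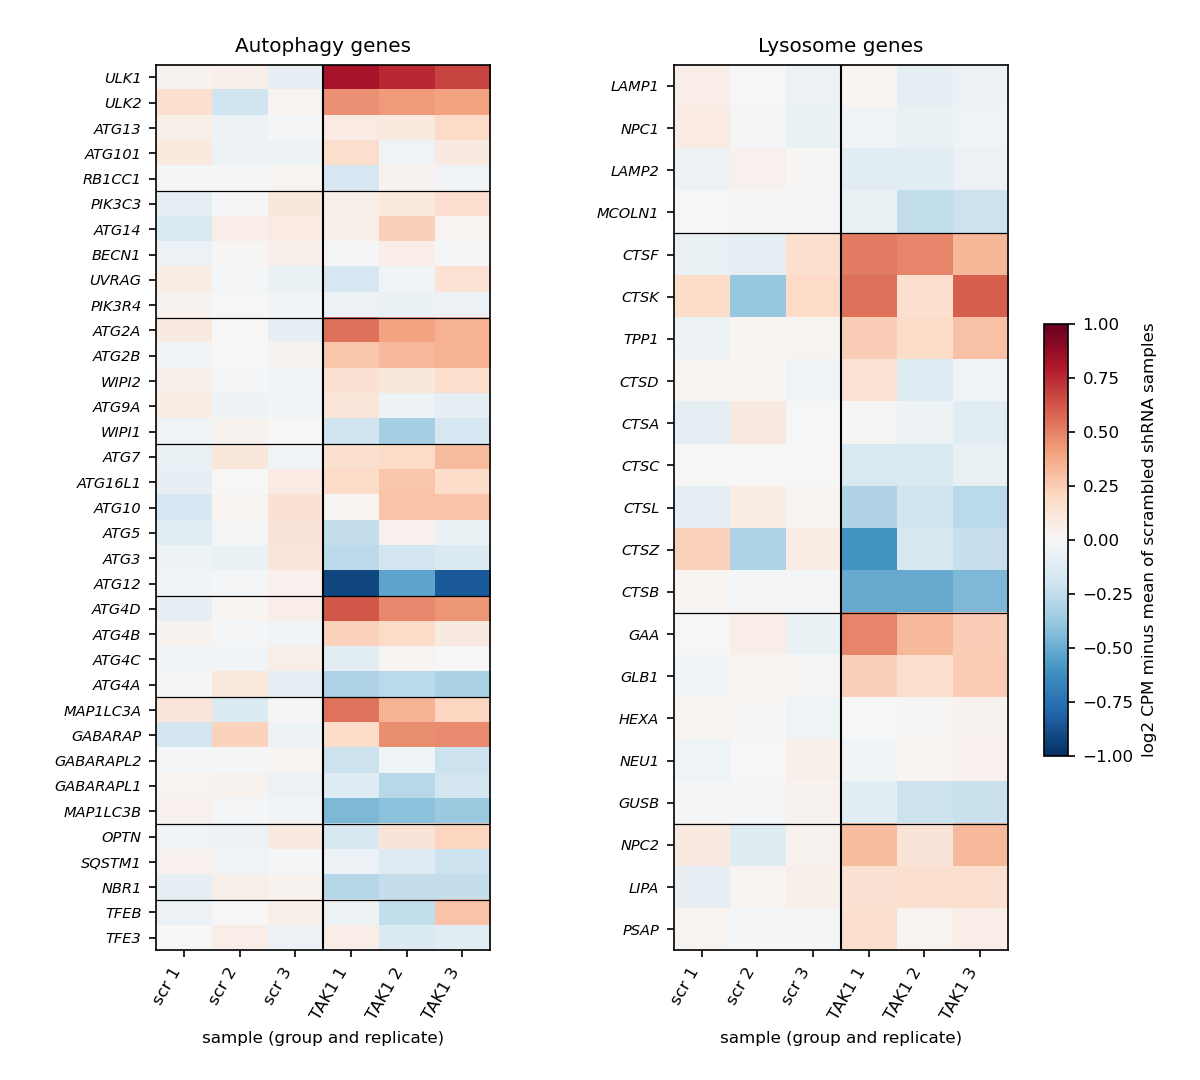
Log2 CPM minus the mean of the scrambled shRNA samples, as colour, for each of the 56 genes (rows, by role with lines between roles) in each of the 6 samples (columns). Scrambled shRNA samples are left of the vertical line; ULK1 and ATG12 show the deepest colours in the TAK1 shRNA samples, and rows of both colours occur side by side within some roles.

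To compare genes with each other, counts were divided by the length of the union of annotated exons and scaled to the same total in every sample (a TPM-like level). The median level with scrambled shRNA was 29.9 over the autophagy genes and 49.75 over the lysosome genes, beside 20.3 over 14305 genes tested that had a length. PSAP stood highest, at 1513 ± 21.2 (SD, n = 3), above 99.5% of the genes tested. MAP1LC3A followed at 141 ± 11.9 and was the most abundant ATG8 gene per length in both groups, reaching 189 ± 21.5 with TAK1 shRNA. That rank depends on its short exon union, 1152 bases against 5037 for MAP1LC3B, 4053 for GABARAPL1 and 3010 for GABARAPL2. In mean CPM with scrambled shRNA MAP1LC3A was lower than these genes, at 37.3 against 78.2, 80.4 and 45.5 in the same order. Per length MAP1LC3B was at 67.7 ± 1.60 and GABARAPL2 at 65.9 ± 0.936 with scrambled shRNA, with samples that overlapped. GABARAPL1 was higher at 86.5 ± 2.97. With TAK1 shRNA MAP1LC3B was at 52.7 ± 1.54 and GABARAPL2 at 61.4 ± 4.88, with every MAP1LC3B sample the lower. ULK1 was at 36.9 ± 1.86 and ULK2 at 2.85 ± 0.351 per length, so the kinase read with the larger rise was also the one with the higher level. TFE3 stood at 60.7 ± 2.74 and TFEB at 0.806 ± 0.0345, the latter above only 7.86% of the genes tested. The lowest level was that of CTSZ, at 0.259 ± 0.0469. Among the peptidases CTSD at 75.3 ± 1.90 and CTSB at 67.6 ± 0.766 led per length with scrambled shRNA. With TAK1 shRNA CTSB was at 49.9 ± 0.928 per length, below CTSA at 61.7 ± 2.40. In mean CPM with scrambled shRNA the order was CTSB (163), CTSA (122), CTSC (101) and CTSD (98.4). The order thus depends on the exon unions, which were 24849 bases for CTSC and 5697 for CTSD. Whether a union matches the transcripts expressed in these cells was not tested, for these or the other genes.

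**Figure D4:**
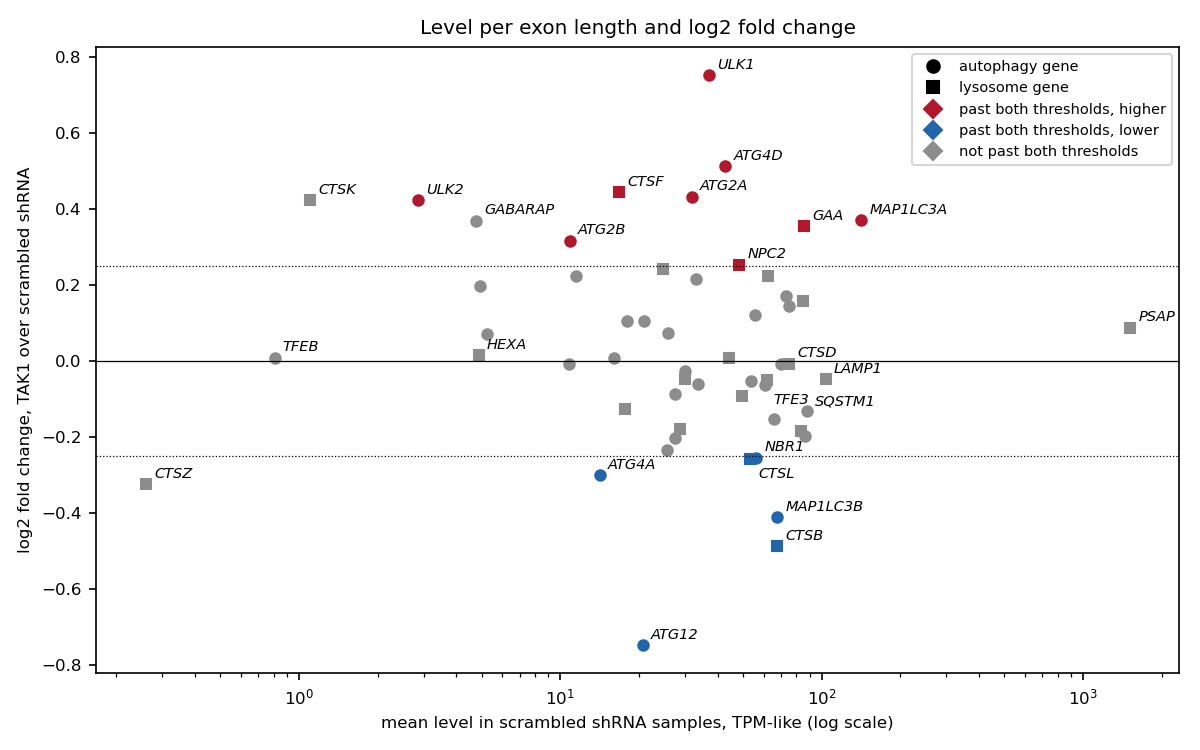
Log2 fold change of TAK1 shRNA over scrambled shRNA (vertical axis) against the mean TPM-like level in the 3 scrambled shRNA samples (horizontal axis, log scale) for the 56 genes, circles for autophagy and squares for lysosome genes. Genes that rose lie between ULK2 at 2.85 and MAP1LC3A at 141, genes that fell between ATG4A at 14.2 and MAP1LC3B at 67.7, and PSAP at 1513 lies close to a log2 fold change of 0.

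A wider set of 41 other autophagy genes and 102 other lysosome genes was read in the same fit. Of 40 other autophagy genes tested, 5 rose (12.5%) and 7 fell (17.5%), and of 100 other lysosome genes tested, 14 rose (14.0%) and 11 fell (11.0%), beside the 11.8% and 11.3% of all genes. This balance depends on scaling, since with library size alone 9 other autophagy genes rose and 6 fell, and 16 other lysosome genes rose and 6 fell, beside 14.9% and 8.81% of all genes. RETREG1, CLN3 and TFEC were not tested for lack of counts. The shares of the lists that follow were not tested against those of all genes. Among 12 partners of initiation, 2 rose and 2 fell (16.7% each). TP53INP1, which binds ATG8 proteins, was at 18.2, 17.1 and 19.1 CPM with scrambled shRNA and 34.3, 35.4 and 33.5 CPM with TAK1 shRNA, a log2 fold change of 0.93 ± 0.074 (SE) with an adjusted p of 4.67e-10. NRBF2, a subunit that joins the lipid kinase complex, was at 29.0, 28.6 and 29.6 CPM with scrambled shRNA and 17.6, 17.9 and 17.1 CPM with TAK1 shRNA, a log2 fold change of -0.73 ± 0.074 (SE) with an adjusted p of 2.76e-08. In both genes the groups stood far apart. TP53INP2 rose (0.40 ± 0.053 (SE)). WDR45B, a relative of the WIPI genes, fell (WDR45B log2 fold change -0.25 ± 0.052 (SE)), short of the fold threshold without scrambled shRNA replicate 3 (-0.23) and without TAK1 shRNA replicate 1 (-0.21), as with upper-quartile scaling (-0.24), library size alone (-0.20) and at least 10 counts in every sample (-0.2485).

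Among 13 selective receptors and their partners tested, 1 rose (7.69%) and 2 fell (15.4%), beside 11.8% and 11.3% of all genes tested. NCOA4, the receptor for ferritin, was at 181, 185 and 184 CPM with scrambled shRNA and 122, 136 and 133 CPM with TAK1 shRNA, a log2 fold change of -0.50 ± 0.049 (SE) with an adjusted p of 1.95e-08. TBK1, the kinase that activates OPTN, fell (-0.46 ± 0.072 (SE)), and WDFY3, a scaffold for aggregates, rose (0.37 ± 0.058 (SE)). Among 15 genes of fusion with lysosomes, 2 rose (13.3%) and 3 fell (20%). RAB7A, the GTPase of late endosomes, was at 176, 174 and 169.8 CPM with scrambled shRNA and 118, 116 and 119 CPM with TAK1 shRNA, a log2 fold change of -0.56 ± 0.046 (SE) with an adjusted p of 8.35e-10. Its TAK1 shRNA samples were nearly equal and all far below the scrambled shRNA samples. YKT6, a SNARE of autophagosomes, fell as well (-0.50 ± 0.051 (SE)), as did VPS11, a tethering subunit (VPS11 log2 fold change -0.30 ± 0.072 (SE), and -0.22 without scrambled shRNA replicate 2, short of the fold threshold). TECPR1, a tether between autophagosome and lysosome, rose (0.53 ± 0.065 (SE)), and so did EPG5 (EPG5 log2 fold change 0.28 ± 0.075 (SE)), which was short of the fold threshold without scrambled shRNA replicate 1 (0.2479) and without TAK1 shRNA replicate 3 (0.22).

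Among 36 other hydrolases and their modifiers, 7 rose and 7 fell (19.4% each), beside 11.8% and 11.3% of all genes tested. The peptidase CTSO was at 2.67, 2.83 and 2.92 CPM with scrambled shRNA and 4.45, 5.89 and 5.69 CPM with TAK1 shRNA, a log2 fold change of 0.93 ± 0.16 (SE) with an adjusted p of 7.68e-05. IDUA, which degrades glycosaminoglycans, rose (0.79 ± 0.14 (SE)), and so did the peptidase CTSS (0.46 ± 0.10 (SE)). In the other direction CTSV was at 6.26, 8.54 and 5.97 CPM with scrambled shRNA and 4.96, 4.39 and 5.15 CPM with TAK1 shRNA, a log2 fold change of -0.52 ± 0.15 (SE) with an adjusted p of 0.00777. The groups of CTSV did not overlap, with scrambled shRNA replicate 2 the highest, and without that sample the CTSV log2 fold change was -0.34 with an adjusted p of 0.122, above the threshold and the highest of a range from 0.0018 over the refits. CTSH fell (-0.52 ± 0.14 (SE)), as did SUMF1, the activator of sulfatases (-0.46 ± 0.083 (SE)). Of 17 subunits of the vacuolar ATPase, which acidifies the lysosome, 1 rose and 1 fell (5.88% each). ATP6V0C, the proton-carrying ring, shared 76.3% of its exon bases with other genes on its strand, and the ATP6V0C log2 fold change was 0.46 ± 0.13 (SE), with an adjusted p of 0.00632 and of 0.0526 without scrambled shRNA replicate 2, the highest of a range from 0.00107 over the refits. ATP6V1E1, of the stalk, fell (-0.43 ± 0.061 (SE)).

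Among 21 other membrane proteins tested, 3 rose (14.3%) and 2 fell (9.52%), beside 11.8% and 11.3% of all genes tested. SIDT2, a nucleic acid transporter, was at 14.3, 14.6 and 15.4 CPM with scrambled shRNA and 26.9, 23.0 and 22.0 CPM with TAK1 shRNA, a log2 fold change of 0.70 ± 0.088 (SE) with an adjusted p of 8.62e-07. The ion channel TPCN1 (0.40 ± 0.05 (SE)) and the trafficking receptor SCARB2 (0.38 ± 0.051 (SE)) rose too. OSTM1 (OSTM1 log2 fold change -0.29 ± 0.075 (SE)) and the tetraspanin CD63 (CD63 log2 fold change -0.27 ± 0.045 (SE)) fell, and both were short of the fold threshold without TAK1 shRNA replicate 2 (-0.2492 and -0.24) and with library size alone (-0.2456 and -0.23). Of 12 genes of transport to the lysosome 1 was called (8.33%), the sorting receptor SORT1, which fell (SORT1 log2 fold change -0.27 ± 0.046 (SE)). It too was short of the fold threshold without scrambled shRNA replicate 1 (-0.2491), without TAK1 shRNA replicate 2 (-0.245) and with library size alone (-0.22). Of 14 relatives and regulators of TFEB and TFE3 tested, 3 rose (21.4%) and 0 fell. RRAGD, a GTPase that ties these factors to the lysosome, was at 38.5, 34.1 and 32.6 CPM with scrambled shRNA and 51.4, 43.9 and 49.0 CPM with TAK1 shRNA, a log2 fold change of 0.46 ± 0.073 (SE) with an adjusted p of 2.50e-05. The groups of RRAGD did not overlap. FLCN, which acts on the same GTPases (0.39 ± 0.071 (SE)), and its partner FNIP1 (0.38 ± 0.072 (SE)) were the others.

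**Figure D5:**
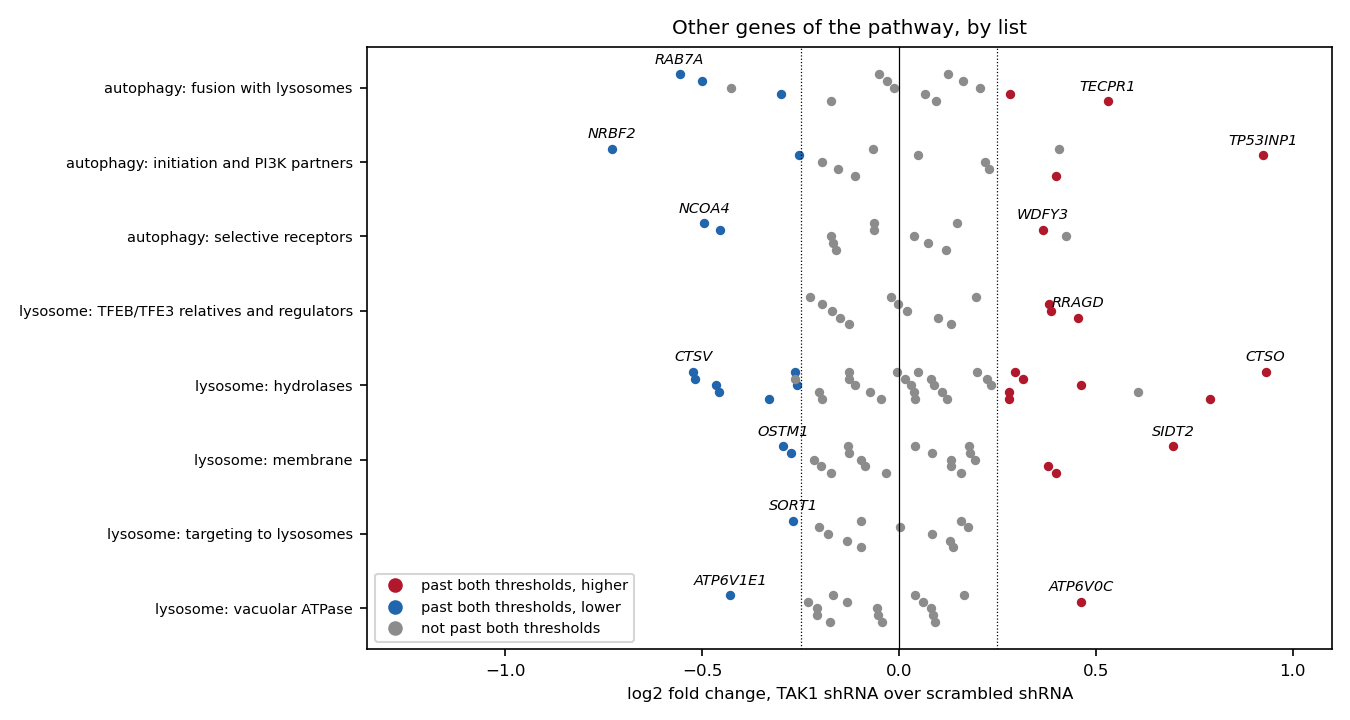
Log2 fold change of TAK1 shRNA over scrambled shRNA (horizontal axis) for the other autophagy and lysosome genes tested, by list (vertical axis). Coloured points passed both thresholds, dotted lines mark a log2 fold change of 0.25 in either direction, and the names are those of the called gene farthest from 0 in each direction, from NRBF2 at -0.73 to CTSO at 0.93.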

How the data were processed

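The deposited values are raw counts of reads per gene, which the authors made after CASAVA base calling, removal of adaptor and low-quality reads and STAR alignment to GRCh38/hg38. Versions, counter, annotation and strand use are not stated. Groups came from the labels (3 samples each), and same-numbered samples share a number only. All rows were fitted together with edgeR 4.0.16 in R 4.3.3 (filterByExpr, trimmed mean of M-values, quasi-likelihood F test, p adjusted by Benjamini-Hochberg across 15935 genes). Calls required an adjusted p below 0.05 together with a log2 fold change 0.25 or more away from 0. Each SE is the size of the log2 fold change over root F. The tests were checked on simulated data in which the changed genes were well counted and moved far past the fold threshold. That check cannot speak to calls near the threshold or at low counts. The common biological coefficient of variation was 5.67%, and chi-square per degree of freedom between replicates was 2.86 to 8.67, above counting error. Alternatives were RLE, upper-quartile and library-size scaling, no filter (1 count) or at least 10 counts in every sample, DESeq2 1.42.0, limma 3.58.1 (voom), no fold threshold or 0.5, a replicate block and leaving out each sample. Lengths, positions and overlaps came from GENCODE 44, promoters from RefSeq. Per-sample values are given for all called genes of the 56, TFEB, TFE3, SQSTM1, MAP1LC3B, LAMP1 and CTSD, and GABARAP (low, with shared exons), a log2 fold change for the ends of each role and most others, and values for up to 3 called genes per direction of each wider list. The genes and lists were chosen with earlier results of these data known.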

Additional observations from a re-analysis of the deposited data

How the results depend on the processing

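The MAP3K7 log2 fold change ran from -1.36 to -1.25 over the alternatives (-1.30 with the replicate block) and stayed called. With the replicate block 1942 genes rose and 1848 fell, 6 and 4 of them autophagy genes and 3 and 2 lysosome genes, and all 15 calls among the 56 genes were shared. With RLE size factors 14 were shared, with DESeq2 14, with limma voom 15, without a filter 13 and with at least 10 counts in every sample 14. A fold threshold of 0.5 left 735 and 680 of all genes, 2 and 1 autophagy genes, 0 and 0 lysosome genes, 2 and 3 other autophagy genes and 3 and 2 other lysosome genes (risen and fallen). No fold threshold gave 10 and 8 autophagy genes, 6 and 3 lysosome genes, 8 and 9 other autophagy genes and 23 and 21 other lysosome genes. In the same order, 2569 (16.1%) and 2734 (17.2%) of all genes had risen and fallen. Upper-quartile scaling left 2 autophagy genes and 1 lysosome gene fallen, beside 10.4% of all genes (12.7% risen). Scaling by library size alone left 2 autophagy, 1 lysosome and 6 other lysosome genes fallen, gave 8 autophagy, 5 lysosome and 9 other autophagy genes risen, beside 8.81% of all genes fallen and 14.9% risen, and moved the medians to 0.056 (autophagy) and 0.041 (lysosome) while that of all genes went to 0.066. Leaving out each sample gave 2 to 4 autophagy genes fallen, 1 to 2 lysosome genes fallen, and an autophagy members median log2 fold change from 0.011 to 0.040 and a lysosome members median log2 fold change from -0.052 to 0.0042. The cause of these shifts was not tested, beyond the fold thresholds' own construction. Limits are 3 samples a group, 1 hairpin, 1 cell line, no stated time, no protein or flux values among the files read here, and unknown strand use for the 29 of 56 genes whose exons overlap another gene, 8 of them on the same strand. At the counts of TFEB, GABARAP, CTSK and CTSZ, intervals reach past 0.25 on at least 1 side. The same holds for other genes not called, among them ATG10 (-0.062 to 0.45), OPTN (-0.19 to 0.33), TPP1 (0.12 to 0.37) and WIPI1 (-0.40 to -0.073). For such genes a change past 0.25 is not excluded.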
